A study of Mus musculus with 4 samples.

Results

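The hemoglobin genes of mouse lung were followed here in single-nucleus RNA-Seq (snRNA-seq) libraries, as 5 of the 32285 genes counted. The members were taken by symbol: the adult β-globin genes Hbb-bs and Hbb-bt, the adult α-globin genes Hba-a1 and Hba-a2, and Alas2, which codes for an enzyme of heme synthesis and not for a globin. They were chosen by their high counts in droplets and cells of the transgenic mice in earlier work on these same libraries, so their levels and genotype differences are given as descriptions, with no test. WT lungs (2 mice) were compared with lungs of VEcad-TRF2DN-Tg (Tg) animals (2 mice), all of the C57/BL6J strain and labelled as 8 to 9 weeks old. In the Tg mice, the VE-cadherin promoter drives dominant-negative TRF2, a mutant of a protein that protects telomeres. The study describes this transgene as overexpressed in endothelial cells (ECs). Whether it acts in blood cells was not tested here. Per the study, both genotypes had been exposed to chronic hypoxia, which the labels of these libraries do not give, and no lungs kept in normal air are compared here. The transgene's transcript is not counted in these files, and the mouse gene Terf2 stood at 51.3 and 51.0 counts per 1000000 UMIs (CPM) in ECs of the WT mice and at 48.0 and 50.9 CPM in those of the Tg mice. Whether blood was flushed from the lungs before the nuclei were isolated is not given in the sources used here.

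Hemoglobin is a tetramer of α-globin and β-globin chains, each holding a heme group that binds oxygen. Erythroid cells make it in the bone marrow and spleen under the control of the factors GATA1, TAL1 and KLF1. They then expel their nucleus and enter the blood as reticulocytes, which still carry globin mRNA and finish their maturation in the circulation. Lung tissue holds much blood, and a preparation of nuclei breaks red cells open, so that globin mRNA can enter any droplet. ALAS2 is the erythroid form of the enzyme that starts heme synthesis, and ALAS1 is the form of other cells.

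The members lie at 3 places of the GRCm38 genome (mm10, the build in the submitters' processing notes), as annotated in GENCODE M21. Hbb-bt (chr7:103812524-103813996) and Hbb-bs (chr7:103826534-103828096) lie on the minus strand, 12537 bases apart. Hba-a1 (chr11:32283511-32284465) and Hba-a2 (chr11:32296489-32297298) lie on the plus strand, 12023 bases apart, and Alas2 (chrX:150547375-150570638) lies on the plus strand of the X chromosome. Each globin gene has 3 exons, and Alas2 has 11. The 120 bases before the RefSeq start site of each gene, also on GRCm38, are shown because the members differed together. They stand 5′ to 3′ on the gene's own strand, and capitals mark every match, on either strand, to the CACCC box, the CCAAT box, the TATA box (searched as TATAA) and a motif of GATA factors (searched as AGATAA).
Hbb-bs, chr7:103827929-103828048, minus strand: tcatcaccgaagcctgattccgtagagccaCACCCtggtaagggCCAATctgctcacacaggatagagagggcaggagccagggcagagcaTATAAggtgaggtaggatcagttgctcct
Hbb-bt, chr7:103813924-103814043, minus strand: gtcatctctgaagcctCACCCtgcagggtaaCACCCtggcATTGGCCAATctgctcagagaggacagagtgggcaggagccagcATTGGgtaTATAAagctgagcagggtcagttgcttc
Hba-a1, chr11:32283552-32283671, plus strand: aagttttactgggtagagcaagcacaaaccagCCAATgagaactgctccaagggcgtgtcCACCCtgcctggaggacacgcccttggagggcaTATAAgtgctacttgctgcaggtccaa
Alas2, chrX:150547297-150547416, plus strand: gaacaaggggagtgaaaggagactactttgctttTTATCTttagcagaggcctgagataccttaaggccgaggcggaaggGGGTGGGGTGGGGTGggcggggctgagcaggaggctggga
The 300-base windows of Hba-a1 and Hba-a2 around their RefSeq start sites held an identical run of 297 bases, so that only the stretch of Hba-a1 is shown. The 120 bases before the start site of Hba-a2 (chr11:32296372-32296491) lie in this run, shifted by 3 bases against those shown. All 4 globin genes had a CACCC box, a CCAAT box and a TATA box in these 120 bases. Among all 32851 RefSeq windows of the same 120 bases, 31.7% held CACCC, 21.3% held CCAAT and 11.8% held TATAA. In Hbb-bt, a CCAAT match on the minus strand ran directly into the one on the plus strand. Alas2 had the GATA motif, which 4.36% of all windows held, and 3 CACCC matches on the minus strand, with no CCAAT or TATAA in this stretch. A match is a run of letters and not evidence of a bound factor. GENCODE begins its gene models 3 to 168 bases further upstream than RefSeq. The whole stretches of Hbb-bs and Hba-a1, and parts of the others, thus lie within the GENCODE genes.

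Transcripts were counted by unique molecular identifiers (UMIs), so that copies made by PCR count once. The deposited matrices held 2057932 and 2353880 barcodes of WT lungs and 2146009 and 2654238 of Tg lungs. Of these, 25269 to 44000 barcodes per mouse had 1500 or more UMIs. Marker genes gave a class to 4345 and 5509 WT barcodes and to 8905 and 11005 Tg barcodes, and the other barcodes of this depth had markers of no class (61.5% to 84.3%) or of several classes (1.06% to 3.23%). Barcodes with 300 to 800 UMIs stood for empty droplets, 2732 to 18387 per mouse. Of the barcodes with 1500 or more UMIs, any pair of libraries shared 0.70% to 1.30% of the smaller set. Intervals given for single mice cover counting error only, and with 2 mice per genotype no exact permutation test can give a two-sided p below 0.33.

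All 5 genes stood far higher in the droplets of the Tg mice than in those of the WT mice, and the β-globins differed most. Hbb-bs, the more abundant adult β-globin, had 82.9 and 112 CPM in WT lungs, against 4742 and 2749 CPM in Tg lungs. The ratio of the group means was 38.4 (WT 97.6 ± 20.7, Tg 3746 ± 1410 CPM, SD, n = 2 each), and the fitted log2 fold change from edgeR was 5.55 (standard error 0.71). The lowest Tg value was 24.5 times the highest WT value, so that the genotypes were wide apart. Hbb-bt had 20.2 and 25.2 CPM in WT lungs, against 1017 and 625 CPM in Tg lungs, a ratio of 36.2 with a fitted log2 value of 5.46 ± 0.50 (standard error). Hbb-bs made up 80.5% to 82.3% of the β-globin UMIs in all 4 mice, so that the β-globins kept their proportion to each other.

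The α-globins differed by less on the same scale. Hba-a1 had 113 and 114 CPM in WT lungs, against 1329 and 999 CPM in Tg lungs, a ratio of 10.3 with a fitted log2 value of 3.63 ± 0.43 (standard error). Hba-a2 had 113 and 121 CPM against 1035 and 781 CPM, a ratio of 7.76 with a fitted log2 value of 3.23 ± 0.40 (standard error). Their transcripts share much sequence: of the stretches of 50 bases, 86.9% of those in Hba-a2 also occur in Hba-a1 and 67.5% the other way, so how reads were split between them is uncertain, and their sum is the firmer value. The sum of the α-globins was 231 ± 6.57 CPM in the WT mice and 2072 ± 413 CPM in the Tg mice (SD, n = 2 each). Between Hbb-bs and Hbb-bt, 65.8% of such stretches in Hbb-bs and 58.3% of those in Hbb-bt were shared, so that their split is uncertain too.

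Alas2 was rarer by far. It had 8 and 11 UMIs in WT droplets, against 230 and 35 UMIs in Tg droplets. Relative to the UMI total of the droplets, this gave 1.44 and 1.54 CPM against 18.3 and 18.0 CPM, a ratio of 12.2 with a fitted log2 value of 3.85 ± 0.37 (standard error). The Tg mice differed less from each other in Alas2 than in any globin. With only 35 UMIs in Tg replicate 2, counting error is wide, and little is read from this.

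The 4 globins together stood at 329 and 373 CPM in the droplets of the WT mice and at 8124 and 5154 CPM in those of the Tg mice. The ratio was 18.9, a log2 value of 4.24, and leaving out 1 mouse gave 3.88 (Tg replicate 1) to 4.53 (Tg replicate 2). None of the 5 genes overlapped between the genotypes. Among the 15180 genes with enough counts in droplets, 27.4% were likewise higher in each Tg mouse than in either WT mouse, and the median log2 fold change was 0.039. The contrast that gives these values is the one the genes were chosen from, so nothing is read from the comparison of their count with this share. More red cells per lung, more globin mRNA per red cell and more blood or free RNA carried through the preparation cannot be told apart in such sums. RNAs of ribosomal protein genes and mitochondrial genes also stood higher in the Tg droplets, as given below.

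**Figure D1:**
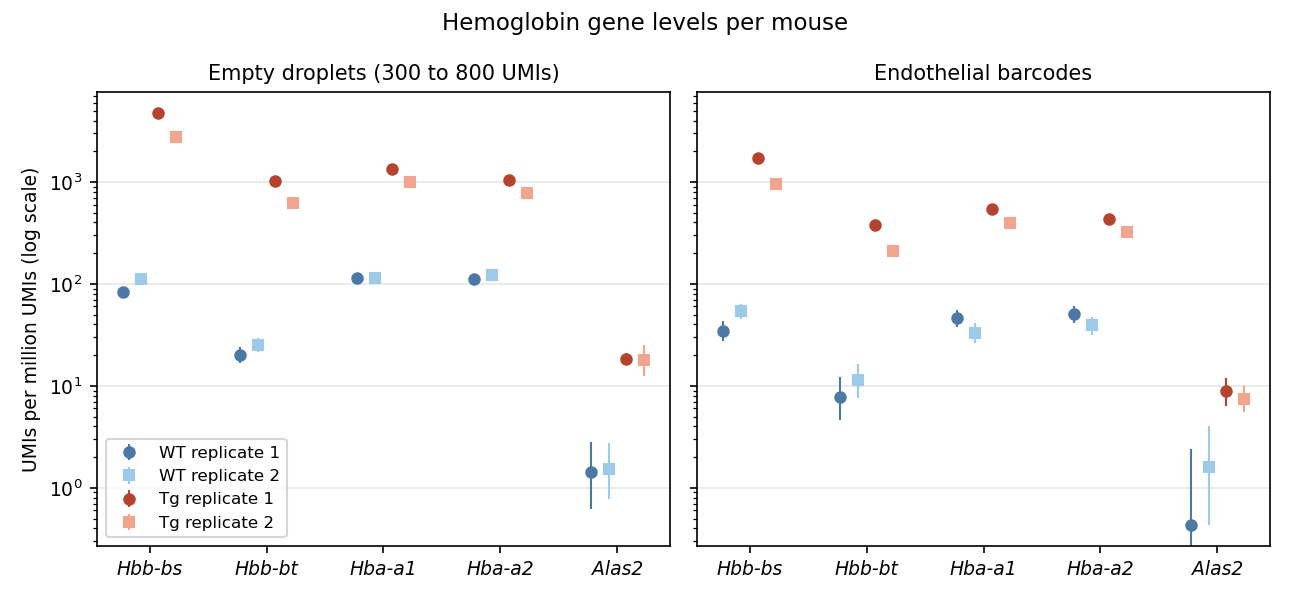
Level of each hemoglobin gene per mouse in empty droplets (left) and in endothelial barcodes (right), in CPM on a log axis, with exact 95% Poisson intervals that cover counting error only. In both panels the Tg mice sit above the WT mice for all 5 genes, and Hbb-bs reaches 4742 in droplets of Tg replicate 1.

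The same difference stood in the 13 cell classes with at least 30 barcodes in every mouse. In ECs, the globin sum was 139 and 138 CPM in the WT mice (322 and 349 UMIs in 722 and 613 barcodes) and 3080 and 1888 CPM in the Tg mice (13995 and 12363 UMIs in 1597 and 1844 barcodes). The ratio of 17.9 in ECs, in which the study describes the transgene, was near that of the droplets. Hbb-bs had 34.5 and 54.2 CPM in the WT ECs, against 1731 and 957 CPM in the Tg ECs, with a fitted log2 value of 4.91 ± 0.41 (standard error). Hba-a1 had 46.2 and 33.2 CPM against 544 and 394 CPM, with 3.54 ± 0.29. Alas2 had 1 and 4 UMIs against 40 and 49 UMIs in ECs, or 0.43 and 1.58 CPM against 8.80 and 7.48 CPM, with 2.93 ± 0.58. The genotypes did not overlap for any of the 5 genes in ECs. Alveolar type 2 barcodes, secretory cells of the alveolus, had 93.8 and 91.1 CPM against 2647 and 1638 CPM, a ratio of 23.2. Over the 13 classes, the ratio of the globin sum ran from 13.8 in mesothelial to 27.3 in club barcodes, with a median of 20.5. The groups did not overlap in any of the 13 classes for any of the 4 globins. Many other genes were likewise higher in each Tg mouse than in either WT mouse: of the genes with enough counts, 33.9% in ECs and in alveolar type 1, 33.1% in alveolar type 2, 32.5% in alveolar macrophage, 31.9% in club, 31.5% in ciliated and in mesothelial, 29.9% in alveolar fibroblast and 29.1% in T and NK barcodes. The share was 25.9% in B cells, 22% in lymphatic endothelial, 21.2% in dendritic, 20% in the small monocyte and interstitial macrophage class and 19.1% in pericyte barcodes. It was 38.8% over all barcodes with a class and 34.9% over those without one.

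Gene by gene, the median ratio over the 13 classes was 31.2 for Hbb-bs, 42.6 for Hbb-bt, 12.96 for Hba-a1 and 10.7 for Hba-a2. In lymphatic endothelial barcodes Hbb-bt had 0 and 1 UMI in the WT lungs, so that its ratio there is not given. Alas2 did not reach the minimum of counts in 5 of the 13 classes and overlapped between the genotypes in dendritic cells. Summed over all barcodes with a class, it had 22 and 26 UMIs in WT lungs, against 251 and 391 UMIs in Tg lungs. This gave 1.19 and 0.85 CPM against 8.32 and 8.31 CPM. As in the droplets, the Tg mice were all but equal in Alas2. In T and NK cells it had 18 and 65 UMIs in the Tg lungs, or 18.6 and 12.6 CPM, and 0 in both WT lungs, where 3 UMIs would be 3.97 and 1.83 CPM.

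In none of the 13 classes did the globin level reach that of the droplets (300 to 800 UMIs) of the same mouse. The class levels lay between 19.4% and 49.6% of the droplet level in WT replicate 1 and between 14.9% and 48.0% in WT replicate 2. They lay between 21.3% and 41.02% in Tg replicate 1 and between 23.2% and 39.7% in Tg replicate 2. Droplets of 100 to under 300 UMIs, with 3 globin UMIs in each WT mouse, gave a lower WT level (0.0158% and 0.0154% of UMIs), which B cells of WT replicate 1 (0.0163%) and pericytes of WT replicate 2 (0.0179%) passed. Averaged over the 4 mice, T and NK cells (39.6% ± 2.50, SD, n = 4), B cells (39.1% ± 9.56) and ECs (38.4% ± 2.56) came first. Ciliated barcodes came last with 21.5% ± 1.45, below club (22.2% ± 5.34) and alveolar type 1 barcodes (23.6% ± 2.29). All neighbours in this order differed by less than the larger of their SDs. Depth moved with the order: ECs had a median of 2389 to 3395 UMIs per barcode and ciliated barcodes 3548 to 4261, and its part in the order was not tested.

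**Figure D2:**
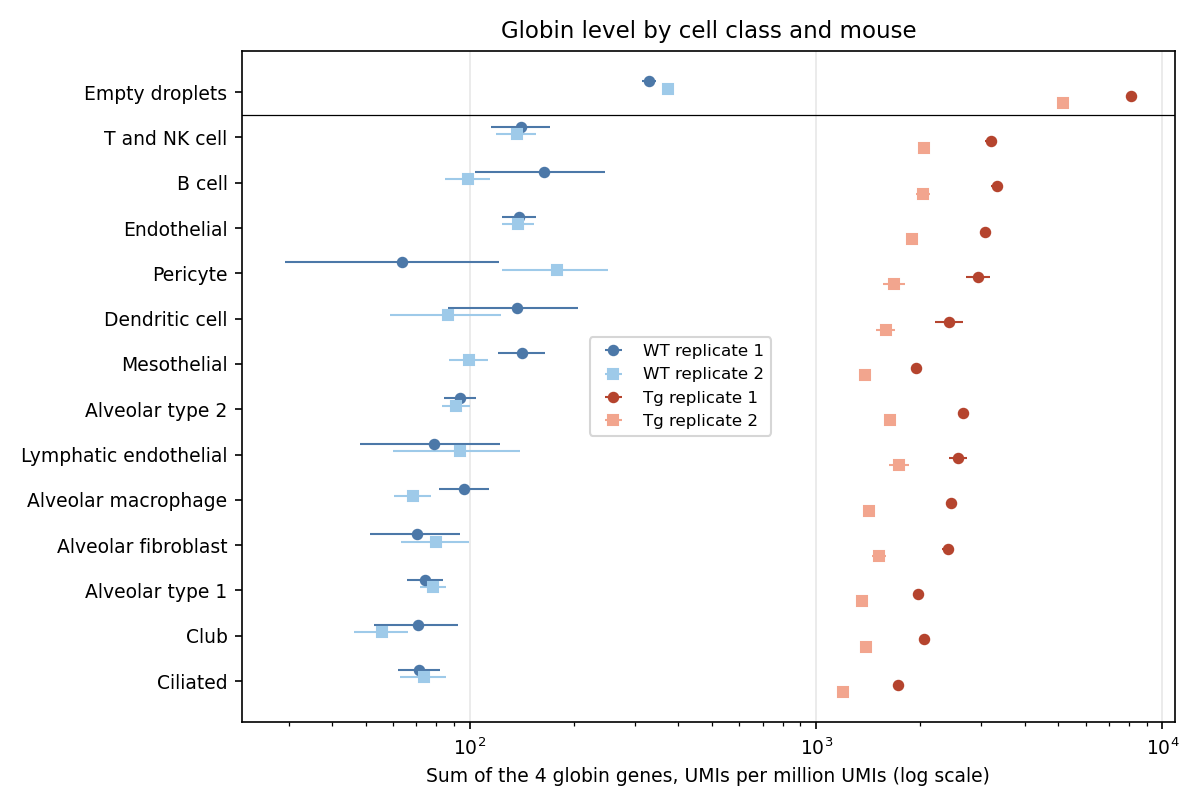
Sum of the 4 globin genes in empty droplets and in 13 marker-defined classes, per mouse, in CPM on a log axis with exact 95% Poisson intervals. The Tg mice lie between 1198 and 3332 in the classes and the WT mice between 55.6 and 179, and each mouse is highest in its droplets.

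Counted per barcode, globin UMIs rose with the depth of the barcode, but by far less than the depth itself. Empty droplets of Tg replicate 1 held 5.57 globin UMIs on average. Its barcodes with 1500 to under 3000 UMIs held 7.32, and those with 6000 or more held 11.8. Tg replicate 2 went from 3.68 in empty droplets to 8.22 in the deepest barcodes. In the WT mice, the same bins ran from 0.238 to 0.756 and from 0.257 to 0.574. At least 1 globin UMI was found in 20.3% and 22.3% of the WT droplets, against 99.3% and 96.3% of the Tg droplets, so that nearly every droplet of a Tg lung was marked by globin mRNA. As a share of all UMIs, globin fell with depth in all 4 mice, from 0.812% in empty droplets to 0.140% in the deepest barcodes of Tg replicate 1.

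**Figure D3:**
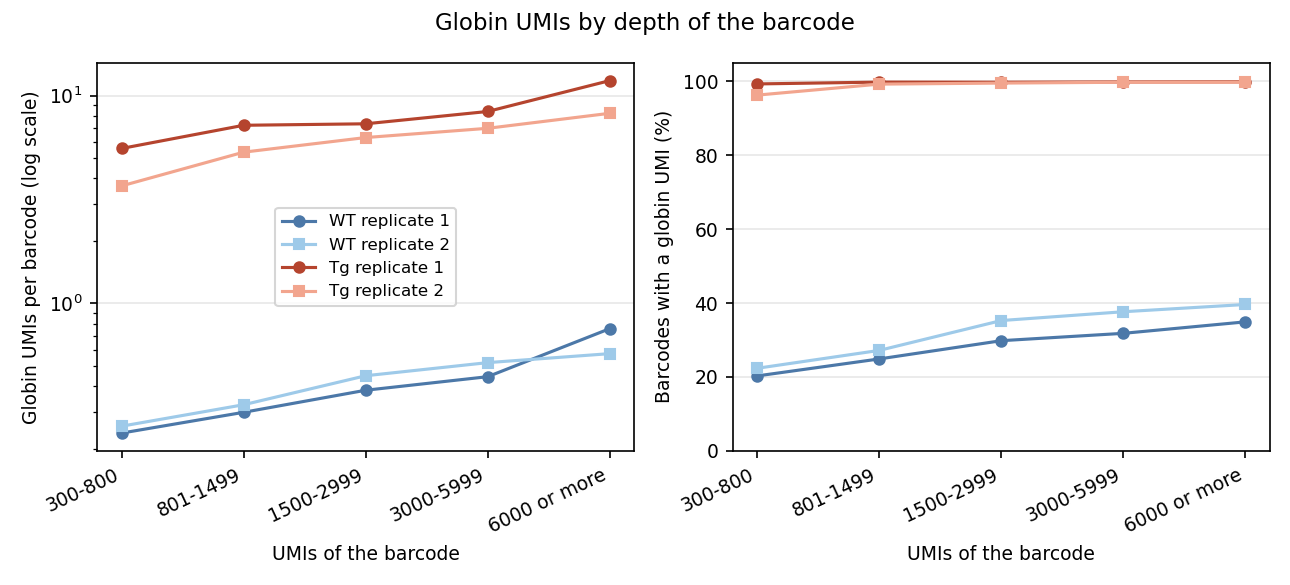
Mean globin UMIs per barcode on a log axis (left) and percent of barcodes with at least 1 globin UMI (right) by the total UMIs of the barcode, per mouse. The Tg mice start at 5.57 and 3.68 UMIs per barcode and the WT mice at 0.238 and 0.257, and the lines of the genotypes do not meet in any bin.

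Shares of positive barcodes in the classes followed those of the droplets. Among ECs, a globin UMI was found in 28.5% and 39.5% of the WT barcodes and in 99.9% and 99.8% of the Tg barcodes, at median depths of 2760, 3395, 2389 and 3011 UMIs. Ciliated cells, which make no hemoglobin, had shares of 33.0% and 29.98% in WT lungs, against 99.9% and 99.4% in Tg lungs, at median depths of 4259, 3888, 3548 and 4261 UMIs. With each barcode thinned to 1500 UMIs, the shares in ECs were 17.0%, 20.2%, 97.7% and 93.3% in the same order of mice, and those in ciliated cells were 13.8%, 13.4%, 91.9% and 84.3%. T and NK cells, which make no hemoglobin either, had thinned shares of 19.8%, 21.5%, 97.7% and 94.5%. The thinned shares of ECs thus lay above those of ciliated cells and at or below those of T and NK cells. At 97.7% and 93.3% in the Tg mice, they are too near 100% to separate globin made by ECs from free RNA. They are not read as globin expression by ECs, which was not tested.

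The make-up of the globin UMIs differed between the genotypes. The β-globins made up 31.3% (exact 95% confidence interval 29.2 to 33.5) and 36.9% (35.0 to 38.7) of the globin UMIs in the droplets of the WT mice. In the Tg mice they made up 70.9% (70.6 to 71.2) and 65.5% (64.5 to 66.4). The α-globins were therefore the larger part in both WT mice and the smaller part in both Tg mice. Hbb-bs alone went from 25.2% and 30.1% of the globin UMIs to 58.4% and 53.3%. In the classes pooled, the β share was 34.3% and 46.7% in WT lungs, against 69.1% and 62.8% in Tg lungs. Between classes the share ran from 67.7% to 70.6% in Tg replicate 1 and from 61.9% to 64.6% in Tg replicate 2. The interval of every one of the 13 classes held the pooled share of the mouse in WT replicate 1 and both Tg mice, and 12 of 13 did in WT replicate 2. The pooled share is made of these same classes, so little is read from this. Against the droplets, it was higher in WT replicate 2 (interval 44.9 to 48.6 against 35.0 to 38.7). It was lower in Tg replicate 1 (68.8 to 69.5 against 70.6 to 71.2) and Tg replicate 2 (62.4 to 63.1 against 64.5 to 66.4). In WT replicate 1 the intervals overlapped. Classes of the WT mice rest on few UMIs, 9 in the pericytes of WT replicate 1, and their shares ran from 20% to 52.2% in WT replicate 1 and from 39.7% to 54.8% in WT replicate 2.

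**Figure D4:**
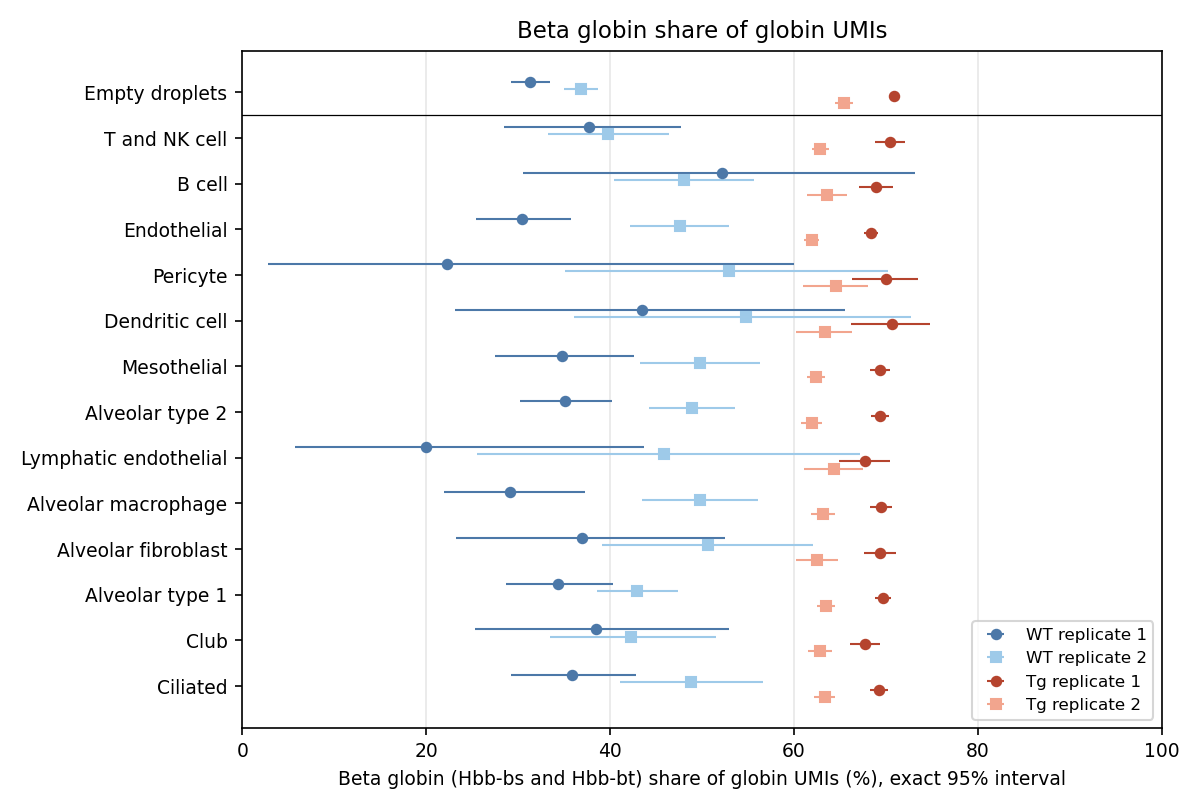
Share of Hbb-bs and Hbb-bt among all globin UMIs (percent) in empty droplets and 13 classes, per mouse, with exact 95% binomial intervals for counting error only. The Tg mice lie between 61.9% and 70.9% everywhere, and the wide WT intervals of the small classes reach into that range.

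Genes of other globins, of the red cell membrane and of erythroid control were then set beside the members, from lists chosen with earlier results known. In droplets, edgeR's quasi-likelihood test with Benjamini-Hochberg adjustment called 3883 of 15180 genes between the genotypes, 25.6%, with 2208 higher and 1675 lower in the Tg mice. Without Tg replicate 1 it called 0, with 3232 genes at an unadjusted p under 0.05, and without Tg replicate 2 it called 814, so that all counts in droplets rest on both Tg mice. The embryonic globins Hbb-bh1, Hbb-bh2, Hbb-y and Hba-x had 1 UMI together in the droplets of all 4 mice. Of the other globins, 2 were tested and both rose. Cytoglobin (Cygb), a globin of fibroblasts, went from 19.3 and 18.3 CPM to 42.1 and 41.6 CPM (log2 fold change 1.42 ± 0.25, where ± is the standard error here and in all fitted values that follow, edgeR adjusted p = 0.0187). Neuroglobin (Ngb), known from neurons, changed by a log2 value of 2.07 ± 0.50 (standard error, edgeR adjusted p = 0.0306).

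Of 14 genes of the red cell membrane, 4 had enough counts in the droplets and 0 passed the threshold in edgeR, with 2 at an unadjusted p under 0.05 and 1 called lower by DESeq2. The most abundant were Epb41 (protein 4.1), with 315 and 289 CPM in WT lungs, against 103 and 193 CPM in Tg lungs, and Tmod1 (tropomodulin). Other cells also express both. Slc4a1 (the anion exchanger band 3), a defining red cell gene, was at or near 0 in 3 of the 4 mice, with 0, 2, 16 and 0 UMIs in WT replicates 1 and 2 and Tg replicates 1 and 2. Barcodes above 800 and below 1500 UMIs, set apart once the values were known, hold more UMIs. There, 11 of the 14 membrane genes passed the filter on low counts, and some passed only through the Tg mice, where they were high. Their values are therefore given as a description, with no test and no count of calls. edgeR called 5559 of all 18801 genes in these barcodes (29.6%), and 0 without Tg replicate 1 or without Tg replicate 2. Slc4a1 had 3 and 0 UMIs in WT lungs, against 38 and 28 UMIs in Tg lungs. Kel, the Kell blood group antigen, had 6 and 1 against 31 and 28 UMIs. Rhd, of the Rh blood group complex, had 12 and 6 against 35 and 43 UMIs. The totals were 48823339 and 25524490 UMIs in WT lungs and 38400160 and 33667472 UMIs in Tg lungs. These genes were picked with their values known, and 6 of the 11 membrane genes had a positive fitted log2 fold change. Epb41 and the adducin Add2 went the other way, with 321 and 302 CPM against 138 and 189 CPM for Epb41 and with 37 and 18 against 8 and 7 UMIs for Add2.

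Several regulators of erythroid nuclei had few UMIs. In the same barcodes, Gata1 had 6 and 4 UMIs in WT lungs, against 6 and 4 UMIs in Tg lungs. Klf1 had 3 and 3 against 2 and 3 UMIs, and Hemgn, a nuclear protein of erythroid precursors, had 19 and 4 against 6 and 2 UMIs. These genes did not pass the filter on low counts and were not tested, and with so few UMIs a small difference would not be seen. In the empty droplets, 1 of 7 tested regulators rose and 1 fell, where 25.6% of all genes were called (14.5% higher). Zfpm1, the cofactor of GATA1, changed by a log2 value of 1.97 ± 0.43 (standard error, edgeR adjusted p = 0.0244). Bcl11a, which represses fetal globin and also acts in B cells and dendritic cells, changed by a log2 value of −1.83 ± 0.54 (standard error, edgeR adjusted p = 0.0490). In the barcodes above 800 and below 1500 UMIs, the Bcl11a value was −1.69 ± 0.50 and did not pass in edgeR (adjusted p = 0.0506), though it did in DESeq2 (adjusted p = 0.00250). The median of the 7 was 0.34, beside 0.039 over all genes. None of the calls of other globins and regulators in droplets held in edgeR without Tg replicate 1, nor without Tg replicate 2.

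Among 16 RNAs that late erythroid cells and reticulocytes are known to keep, 14 were tested in droplets, 5 rose and 0 fell, where 25.6% of all genes were called (14.5% higher), with a median log2 fold change of 0.84. The log2 fold change was positive for 10 of the 14. It was negative for Fbxo7 (−0.44), Car2 (−0.43), Slc25a37 (−0.20) and Tent5c (−0.0069), none of which passed the threshold. Isg20, an exonuclease, had the largest log2 fold change (2.79, standard error 0.75, edgeR adjusted p = 0.0395), and its levels were 4.32 and 2.38 CPM in WT lungs, against 27.4 and 6.16 CPM in Tg lungs. Prdx2, the red cell peroxiredoxin, had 1.52 (edgeR adjusted p = 0.0210), Mkrn1 had 1.26 (edgeR adjusted p = 0.0208) and Bnip3l, which clears mitochondria from reticulocytes, had 1.16 (edgeR adjusted p = 0.0230). Many lung cells express these genes as well. Without Tg replicate 1, none of the 14 passed in edgeR, and without Tg replicate 2 it called 2.

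Of 12 genes of heme synthesis other than Alas2, all tested, 3 rose and 0 fell in droplets, a share close to the 25.6% of all genes called there (14.5% higher), with a median log2 fold change of 0.077. Alad, which joins the product of ALAS into porphobilinogen, went from 23.4 and 28.3 CPM to 66.8 and 59.0 CPM (log2 fold change 1.55 ± 0.26, edgeR adjusted p = 0.0182). Urod, the enzyme of a later step, went up by 1.29 on the log2 scale (edgeR adjusted p = 0.0298). Fech, which puts iron into heme, had 52.5 and 47.3 CPM in WT lungs, against 34.05 and 47.2 CPM in Tg lungs. Alas1 did not pass the test, with 245 and 324 CPM against 269 and 237 CPM (log2 fold change 0.094, edgeR adjusted p = 0.835). In edgeR, 0 of them passed when Tg replicate 1 was left out and 1 when Tg replicate 2 was. In ECs, Alad alone was called among these 12 genes (log2 fold change 1.65 ± 0.28, edgeR adjusted p = 0.0230), with 8.20 and 10.3 CPM in WT lungs, against 32.8 and 26.3 CPM in Tg lungs. Of all 14015 genes tested in ECs, 930 were called (6.64%). Alad was also called higher in empty droplets, where its CPM was above that of ECs in every mouse. The part of free RNA in its call in ECs was not tested.

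Genes that clear hemoglobin and heme or handle iron also had calls in droplets: 9 of 19 tested genes rose and 0 fell, where 25.6% of all genes were called (14.5% higher), with a median log2 fold change of 0.76. The ferritin genes led it. Ftl1 had 101 and 198 CPM in WT lungs, against 1880 and 1420 CPM in Tg lungs (log2 fold change 3.73 ± 0.55, edgeR adjusted p = 0.0178). Fth1 had 163 and 403 against 3204 and 2090 CPM (log2 fold change 3.51 ± 0.67, edgeR adjusted p = 0.0207). Slc48a1, which carries heme out of lysosomes, changed by a log2 value of 2.05 (edgeR adjusted p = 0.0178), Trf (transferrin) 1.73 (adjusted p = 0.0236), Hp (haptoglobin, which binds free hemoglobin) 1.68 (adjusted p = 0.0310) and Blvrb, a biliverdin reductase, 1.54 (adjusted p = 0.0267). Hmox1, the inducible heme oxygenase, had 36.0 and 53.5 CPM in WT lungs, against 32.2 and 54.9 CPM in Tg lungs (log2 fold change 0.15, edgeR adjusted p = 0.713), so that its mice overlapped. The count of 9 was 0 in edgeR without Tg replicate 1 and 5 without Tg replicate 2. Fth1 and Ftl1 rank with abundant cytoplasmic mRNAs of many cells, many of which rose too.

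**Figure D5:**
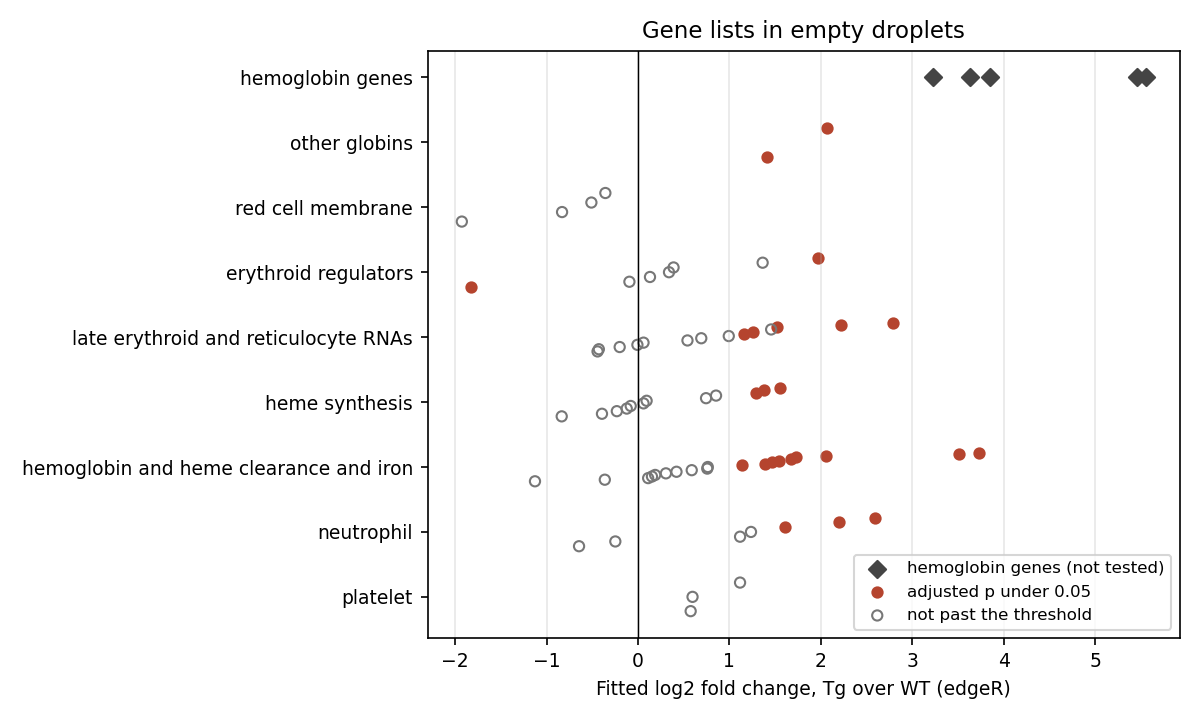
Fitted log2 fold change (Tg over WT, edgeR) in empty droplets for the 5 hemoglobin genes and for each tested gene of 8 lists, with filled points for an adjusted p under 0.05. The hemoglobin genes lie between 3.23 and 5.55, and of the list genes Ftl1 and Fth1, at 3.73 and 3.51, lie in that range.

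The same list was read in the macrophages, which take up hemoglobin and old red cells. Alveolar macrophages had 96.3 and 68.4 CPM of the globin sum in WT lungs, against 2450 and 1425 CPM in Tg lungs. In them, 830 of 13162 genes were called (6.31%), 747 higher and 83 lower in Tg lungs. DESeq2 called 672 higher and 217 lower. Of the 17 tested genes of the clearance list, 5 rose and 0 fell: Ftl1 (log2 fold change 3.23, edgeR adjusted p = 0.00668), Fth1 (2.92, adjusted p = 0.00868), Hp (1.48, adjusted p = 0.0351), Slc48a1 (1.30, adjusted p = 0.0362) and Trf (1.19, adjusted p = 0.0390). DESeq2 called 4 of the 17. The 5 genes were also called higher in empty droplets, and the part of free RNA in their calls here was not tested. Without Tg replicate 1, edgeR called 2 of all genes, and without Tg replicate 2 it called 151 of all genes and 2 of the clearance list. Hmox1 had 82 and 99 UMIs in WT lungs, against 76 and 120 UMIs in Tg lungs, or 54.8 and 26.8 CPM against 31.5 and 32.8 CPM (log2 fold change −0.31 ± 0.35, edgeR adjusted p = 0.602). Slc40a1, the iron exporter, had 2.68 and 1.35 CPM against 4.14 and 4.37 CPM (edgeR adjusted p = 0.243). Cd163, the receptor of the complex of haptoglobin and hemoglobin, had 1, 24, 3 and 6 UMIs and was not tested.

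Monocytes and interstitial macrophages were a small class, with 25 and 55 barcodes in WT lungs, against 57 and 61 in Tg lungs. Their globin sum was 60.3 and 75.3 CPM in the WT mice, from 7 and 29 UMIs, and 2638 and 1741 CPM in the Tg mice. Of 4786 genes, 188 were called (3.93%), among them 4 of 14 tested clearance genes, Fth1, Ftl1, Hp and Trf, all higher. These 4 were also called higher in empty droplets, and the part of free RNA was not tested. Cd163 was clearly present in this class, with 224 and 195 CPM in WT lungs, against 466 and 175 CPM in Tg lungs (log2 fold change 0.74 ± 0.45, edgeR adjusted p = 0.476). Hmox1 had 20 and 21 UMIs against 4 and 7 UMIs, or 172 and 54.5 CPM against 25.5 and 27.8 CPM (log2 fold change −1.69 ± 0.67, edgeR adjusted p = 0.243). Both Tg mice were below both WT mice, but the fit did not separate them from the spread between mice. Slc40a1 had 4, 2, 8 and 3 UMIs and was not tested.

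In alveolar type 2 barcodes, 1273 of 13965 genes were called (9.12%) and 7 of 16 tested clearance genes rose, with 0 lower. Fth1 and Ftl1 had log2 fold changes of 3.17 each (edgeR adjusted p = 0.00966 and 0.0117), and Slc48a1, Lrp1, Hp and Trf had values between 1.32 and 1.39. Of the 12 heme synthesis genes, 0 passed in edgeR and DESeq2 there, with 1 at an unadjusted p under 0.05. In ECs, 4 of 17 clearance genes rose, Fth1, Ftl1, Slc48a1 and Hp, with Hp at 95.3 and 75.1 CPM in WT lungs, against 289 and 170 CPM in Tg lungs (log2 fold change 1.41, edgeR adjusted p = 0.0428). The clearance genes named for both classes were also called higher in empty droplets. There, Hp had 227 and 216 CPM in WT lungs, against 716 and 445 CPM in Tg lungs. The part of free RNA in the calls of these classes was not tested. Without Tg replicate 1, edgeR called 0 genes in ECs, with 1544 at an unadjusted p under 0.05, and 4 in alveolar type 2 barcodes. Without Tg replicate 2 it called 569 in ECs.

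Other RNAs of the cytoplasm moved with the globins in the droplets. The 84 ribosomal protein genes together had 9160 and 20556 CPM in WT lungs, against 77638 and 66949 CPM in Tg lungs, and 77 of 82 tested rose. The 13 mitochondrial genes had 1259 and 1510 CPM against 7849 and 6854 CPM, and 12 of 13 rose. Per 100 ribosomal UMIs, the droplets held 3.59 and 1.81 globin UMIs in WT lungs, against 10.5 and 7.70 in Tg lungs. Per 100 mitochondrial UMIs, they held 26.1 and 24.7 against 103 and 75.2. The globin sum thus remained 3.36 and 3.52 times higher in the Tg mice on these scales, with no overlap, in place of 18.9 times. Single globins were not set on these scales. Their fitted log2 fold changes in droplets were 5.55 (Hbb-bs), 5.46 (Hbb-bt), 3.63 (Hba-a1) and 3.23 (Hba-a2). The median was 2.73 over the tested ribosomal protein genes and 2.96 over the mitochondrial genes, so that the α-globins lay much nearer to them than the β-globins. How far the rise of cytoplasmic RNA and that of the globins share a source was not tested.

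Few barcodes stood out as possible red cells. Over all barcodes with 300 or more UMIs, 52 and 12 of WT lungs, against 38 and 13 of Tg lungs, had at least 5 globin UMIs and more than the free RNA of their mouse gives at their depth (Poisson p under 1e-06). They held 4.39% and 0.950% of the globin UMIs in WT lungs and 0.410% and 0.117% in Tg lungs. The bar followed the globin share of the empty droplets, 0.0329% and 0.0373% of UMIs in WT lungs and 0.812% and 0.515% in Tg lungs. At equal depth, a Tg barcode thus needed far more globin UMIs to pass, so the genotypes are not compared by these counts and shares. The highest barcode, in Tg replicate 1, had 345 globin UMIs, 17.1% of its 2022 UMIs, and its markers put it among the ECs, whose globin sum it enters. Of these barcodes, 8 and 1 had a class in WT lungs, against 4 and 2 in Tg lungs. The class of erythroid markers held 1 barcode in WT replicate 1, with 18 globin UMIs, 1 Alas2 UMI and 4 UMIs of erythroid markers, and 1 barcode in Tg replicate 1, with 14 globin UMIs and 8 of erythroid markers, or 8268 and 7932 CPM of the globin sum. The 8268 CPM lay above the droplets of its mouse, as did the 2 neutrophil barcodes of WT replicate 1, with 3 globin UMIs (627 CPM). In globin UMIs, neither erythroid barcode stood near the highest barcode of its mouse, with 132 in WT replicate 1 and 345 in Tg replicate 1. As a share of UMIs, that of WT replicate 1 (0.827%) lay above this highest barcode (0.451%).

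The genes most like the sum of the 5 members in their pattern were sought over 56 points, the droplets and 13 classes in each of 4 mice, among 15745 genes by Pearson's r of log2(CPM + 1). The points share libraries and depth, and r is given as a description. Beside the members, the 5 most like were mt-Nd4 (0.979) and mt-Co1 (0.973), subunits of the respiratory chain coded in mitochondria, the ribosomal protein genes Rpl11 (0.976) and Rpl34 (0.973), and Gng5 (0.972), a G protein subunit. In droplets, Rpl11 had 54.7 and 98.5 CPM in WT lungs, against 1072 and 631 CPM in Tg lungs. Alas2, with few UMIs, had an r of 0.778, below the 0.985 to 0.993 of the 4 globins. All 5 members are themselves parts of the sum.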

How the data were processed

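Lungs of 2 WT and 2 Tg mice were measured by droplet-based snRNA-seq. The authors deposited, per mouse, unfiltered matrices of UMI counts, made with Cell Ranger 6.1.1 on mm10 per the labels, and with reads on introns counted per the study's methods. The barcodes and genes of each matrix were deposited as lists beside it. Neither cell filters nor free-RNA removal are part of these counts. The members and gene lists were chosen with earlier results of these data known.

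Barcodes with 1500 or more UMIs were given a class when at least 3 different markers had UMIs and their sum passed a Poisson test (p under 0.0001) against the droplet profile of the same mouse. Markers over 1000 CPM in droplets of any mouse were left out, a choice made after the data had been seen. Barcodes with several classes, which may be doublets, were left out, and no doublet caller was run. UMIs were summed per mouse and class, and a class needed 30 barcodes in every mouse to enter the range over classes. CPM is UMIs per 1000000 UMIs of the same barcodes.

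The Tg lungs were set against the WT lungs by edgeR's quasi-likelihood test (TMM, filterByExpr with a minimum count of 10, Benjamini-Hochberg, threshold 0.05), over all genes tested. Beside genotype, strain and age, the labels give a replicate number and nothing on litters or batches, so p-values measure the spread between these animals. Named genes were the members, up to 6 called genes per list and comparison with the largest change, the 2 genes with most UMIs of a list with none called, and Hmox1, Cd163, Slc40a1 and Hp in macrophages. The red cell and regulator genes with few UMIs, and those of the barcodes above 800 and below 1500 UMIs, were added after their values were seen. So were the late erythroid and neutrophil genes named with a negative log2 fold change. Ahsp was not analysed here. Some called genes of the lists enter the counts and are not reported here by name. In simulated counts for droplets, edgeR found 74.5% of the 200 genes set to a 4-fold change (8.59% of its calls were false, 14872 genes tested). Of 200 set to a 2-fold change it found 0, and all 3 of its calls there were false. For ECs it found 81.0% (13698 genes tested) and 2.5% (13702). Only 200 genes were changed in each run, a far smaller share than the 25.6% called in the real droplets. How far these rates hold for the real counts was not tested. The alternatives were DESeq2, all genes kept whatever their counts, a block for the replicate number, leaving out 1 mouse at a time, other UMI and marker minimums, other droplets and a total without mitochondrial and the 10 most abundant genes.

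Poisson and binomial intervals (95%) cover counting error only. Software was R 4.3.3, edgeR 4.0.16, DESeq2 1.42.0, limma 3.58.1, Python 3.11.15, NumPy 2.4.6, SciPy 1.17.1, pandas 2.3.3 and matplotlib 3.10.9. Promoter sequences were taken from RefSeq (GRCm38.p6), where all 5 symbols matched, and gene coordinates from GENCODE M21.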

Additional observations from a re-analysis of the deposited data

Results flagged for a closer look

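Globin UMIs also stood high in barcodes that are in none of the cell classes. In barcodes with 1500 or more UMIs and markers of no class, the globin sum was 183 and 205 CPM in WT lungs, against 2945 and 2414 CPM in Tg lungs, a ratio of 13.8. These were 61.5% to 84.3% of the barcodes of that depth, and whether they held a nucleus or free RNA alone was not tested. In barcodes with markers of several classes, it was 226 and 56.0 CPM against 2081 and 1164 CPM, a ratio of 11.5. Both values drew attention because both Tg mice lay above both WT mice outside the classes compared.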

How the results depend on the processing

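The globin sum kept its direction under every alternative run. In droplets its log2 ratio (4.24) was 4.94 with droplets of 100 to under 300 UMIs, where each WT mouse had 3 globin UMIs, and 3.88 to 4.53 with a mouse left out. With a mouse left out it was 3.77 to 4.48 in ECs, 4.15 to 4.84 in alveolar type 2 barcodes, 4.11 to 4.89 in alveolar macrophages and 4.68 to 5.28 in monocytes and interstitial macrophages. The median class level, 28.5% of the droplet level averaged over the mice, became 52.2% with droplets of 100 to under 300 UMIs, 34.2% with barcodes above 800 and below 1500 UMIs (added once the values were known) and 23.2% with at least 3000 UMIs, and ran from 27.7% to 29.8% with a mouse left out.

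Numbers of genes called moved more. In droplets edgeR called 61 (of 224 tested) with 100 to under 300 UMIs and 0 to 4802 with a mouse left out. With no filter on low counts it called 2696 in ECs, 3168 in alveolar type 2 barcodes, 2404 in alveolar macrophages and 312 in monocytes and interstitial macrophages. With at least 3000 UMIs it called 555 in ECs and 84 in monocytes and interstitial macrophages, which had 98 with at least 5 markers and 125 by DESeq2. With a mouse left out, the numbers ran from 0 to 2520 in ECs, 4 to 2815 in alveolar type 2 barcodes, 2 to 2845 in alveolar macrophages and 167 to 270 in monocytes and interstitial macrophages, the first 3 lowest without Tg replicate 1 and highest without WT replicate 2. A lone mouse is assumed there to vary like the others. The cause was not tested.

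The replicate numbers name the mice and pair nothing in the labels. Deviations of same-numbered mice from their group means correlated at 0.131 in droplets and 0.150 in ECs, over 2 pairs. With the replicate number as a block, edgeR called 4685 genes in droplets, 2044 in ECs, 2189 in alveolar type 2 barcodes, 314 in alveolar macrophages and 227 in monocytes and interstitial macrophages.

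Of 56 calls of list genes, none reversed under an alternative, and 52 lost significance without Tg replicate 1, 29 without Tg replicate 2, 4 without WT replicate 1, 1 without WT replicate 2, 6 with the replicate block and 5 by DESeq2. Of the 32 calls in cell classes, 12 were lost with at least 3000 UMIs and 3 with at least 5 markers, and 2 of 24 in droplets were lost with barcodes above 800 and below 1500 UMIs. Depth limits the WT values: with 0.238 to 0.257 globin UMIs per WT droplet, single barcodes carry no level. Gata1, Klf1 and Hemgn did not pass the filter on low counts and were not tested.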

Other observations

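Markers of the other blood cells were read in the same droplets. Of 9 neutrophil genes, 7 were tested, 3 rose and 0 fell, where 25.6% of all genes were called (14.5% higher). S100a9 and S100a8, the calprotectin subunits, had 4.32 and 7.42 against 37.7 and 18.5 CPM and 5.04 and 7.14 against 26.7 and 18.5 CPM, with log2 fold changes of 2.59 and 2.20 (edgeR adjusted p = 0.0210 and 0.0187). Retnlg followed with 1.61 (adjusted p = 0.0478). Of the 7 tested, 5 had a positive log2 fold change. Csf3r went the other way, with 14.2 and 22.7 CPM in WT lungs, against 9.44 and 10.3 CPM in Tg lungs (log2 fold change −0.65, edgeR adjusted p = 0.188). Mmp9 had −0.25 (edgeR adjusted p = 0.821). The summed CPM of the 9 neutrophil genes was far below that of the globins in every mouse. Of 8 platelet genes, 3 were tested and 0 passed in edgeR or DESeq2, with 1 at an unadjusted p under 0.05. The most abundant, Pf4 (platelet factor), had 3.06 and 52.5 CPM in WT lungs, against 36.1 and 33.9 CPM in Tg lungs, and the gap between the WT replicates was the widest. Itga2b, the platelet integrin, had 2.70 and 3.36 against 5.87 and 4.62 CPM.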
